A study of Mus musculus with 24 samples.

Results

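The 10 genes described here encode the phototransduction proteins of cone photoreceptors: the cone opsins Opn1sw and Opn1mw, the transducin subunits Gnat2, Gnb3 and Gngt2, the phosphodiesterase subunits Pde6c and Pde6h, the channel subunits Cnga3 and Cngb3, and the arrestin Arr3. They were taken by mouse symbol, matched to Ensembl gene identifiers, from a table of 56065 genes. RNA of tissue labelled as mouse choroid, which is the vascular layer behind the retina, gave 24 sequenced libraries, with 4 wild type (WT) and 4 Ceacam1-/- libraries without laser and 9 WT and 7 Ceacam1-/- libraries with laser, for which the labels describe 6 spots of an Nd:YAG laser in each eye to induce choroidal neovascularization. The study describes Ceacam1-/- mice as carrying a homozygous deletion of the leading exons of Ceacam1, with WT littermates as controls on a C57BL/6J background free of the rd8 allele. The age and sex of the animal behind each library, the interval after laser, and whether each library came from a separate mouse are not given by the labels, so p-values measure the spread between these libraries. Libraries are named below by the number in their label.

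Cones serve daylight and colour vision. Light turns an opsin on, the opsin activates transducin, transducin releases the catalytic subunits of phosphodiesterase 6 from their inhibitor, and the fall in cyclic GMP closes the cyclic nucleotide gated channel, after which arrestin shuts the opsin off. Rods use a parallel set of proteins from paralogous genes, and in the mouse they far outnumber cones. Both cell types lie in the neural retina, apart from the choroid and separated from it by the retinal pigment epithelium.

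The promoters of 6 of the 10 genes were found in RefSeq windows running from 250 bases before to 50 bases after a transcription start, in build GRCm38.p6, with 7 windows in all since Cnga3 had 2. The motif TAATCC, the core read by the photoreceptor homeodomain factors CRX and OTX2, was sought on both strands, where it also reads GGATTA. It stood in 1 of the 7 windows, that of Gnat2, and in 2320 of the 32851 windows of the whole table (7.06%). A related motif, TAATCT, also sought on both strands, was added after the sequences had been read and stood in the windows of Arr3, with 3 copies, and Opn1sw, with 1, against 8.19% of all windows. At least 1 of the motifs stood in 14.37% of all windows. The 3 windows with a match are shown 5′ to 3′ on the strand of the gene with the motif in capitals. They lie at chr6:29380464-29380763 on the minus strand, chrX:100605247-100605546 on the plus strand and chr3:108092816-108093115 on the plus strand. A match of letters is not a binding site.
Opn1sw: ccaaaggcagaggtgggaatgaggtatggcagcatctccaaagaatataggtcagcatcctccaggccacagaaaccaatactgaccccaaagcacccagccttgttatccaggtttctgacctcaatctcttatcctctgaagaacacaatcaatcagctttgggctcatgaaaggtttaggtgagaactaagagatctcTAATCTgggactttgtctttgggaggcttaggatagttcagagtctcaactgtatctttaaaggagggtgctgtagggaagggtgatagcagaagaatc
Arr3: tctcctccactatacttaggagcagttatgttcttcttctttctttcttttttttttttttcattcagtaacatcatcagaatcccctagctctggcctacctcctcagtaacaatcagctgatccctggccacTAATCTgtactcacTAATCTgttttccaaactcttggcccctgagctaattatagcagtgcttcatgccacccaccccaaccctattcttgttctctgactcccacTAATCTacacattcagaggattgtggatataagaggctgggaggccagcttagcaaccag
Gnat2: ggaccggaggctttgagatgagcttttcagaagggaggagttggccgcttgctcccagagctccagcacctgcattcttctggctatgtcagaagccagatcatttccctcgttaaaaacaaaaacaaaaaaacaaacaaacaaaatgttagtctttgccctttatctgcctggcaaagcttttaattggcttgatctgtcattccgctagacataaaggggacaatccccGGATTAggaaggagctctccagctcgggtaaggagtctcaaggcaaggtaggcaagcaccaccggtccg

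All other positions refer to GRCm39, the build of the deposited values. Opn1sw (ENSMUSG00000058831) lies on chromosome 6 from 29376670 to 29388467 and shares 397 of its 2557 exonic bases with Calu on the opposite strand. Opn1mw (ENSMUSG00000031394) lies on chromosome X from 73171070 to 73194366. Gnat2 (ENSMUSG00000009108) lies on chromosome 3 from 107999932 to 108008748, Gnb3 (ENSMUSG00000023439) on chromosome 6 from 124811202 to 124817238, and Gngt2 (ENSMUSG00000038811) on chromosome 11 from 95725953 to 95736565, where 871 of its 3975 exonic bases are shared with Abi3 on the opposite strand. Pde6c (ENSMUSG00000024992) lies on chromosome 19 from 38121229 to 38172406, and Pde6h (ENSMUSG00000064330) on chromosome 6 from 136900830 to 136945863, sharing 136 of 7847 exonic bases with Arhgdib on the opposite strand. Cnga3 (ENSMUSG00000026114) lies on chromosome 1 from 37253515 to 37304128, with 792 of 6042 exonic bases shared with the lncRNA Gm69908, Cngb3 (ENSMUSG00000056494) on chromosome 4 from 19280850 to 19510623, and Arr3 (ENSMUSG00000060890) on chromosome X from 99649101 to 99662099. The libraries do not mark the strand, so reads in shared exonic bases cannot be assigned with certainty, and the values of Gngt2, Opn1sw, Cnga3 and Pde6h are uncertain to that extent.

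The deposited values are normalized counts: read estimates scaled for the size of the library and the mean length of the transcripts. They summed to between 23704346 and 35094410 per library, and 25021 to 27964 genes were above 0. Ceacam1 itself stood at 958, 5027, 1242 and 4596 normalized counts in WT libraries 21, 22, 26 and 27, and at 405, 505, 508 and 1171 in Ceacam1-/- libraries 23, 24, 25 and 28. With laser it ran from 774 to 8367 (median 996) in WT and from 67.8 to 905 (median 335) in Ceacam1-/- libraries. The genotypes overlapped in each case, and the value of a gene includes exons outside the deletion.

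The tissue label was compared with marker genes. In its cell sorting methods the study uses the name choroid for pigment epithelium, choroid and sclera together, left when the retina is taken off the eye cup, and its RNA methods, which follow, name choroid tissue without describing the dissection again. Endothelial Pecam1 stood at 895 to 3717 and Plvap, the diaphragm protein of fenestrated endothelium, at 1051 to 15720 normalized counts. Rpe65, the isomerase of the pigment epithelium, stood at 2045 to 56349, so vessel and pigment epithelium RNA was present in every library. So was RNA of the neural retina: Sag, rod arrestin, ran from 475 in Ceacam1-/- library 25 to 151420 in Ceacam1-/- laser library 14, and none of the 10 genes of rod phototransduction was at 0 throughout. In such bulk libraries, fewer cones and less RNA per cone cannot be told apart.

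Each cone gene was measured in most libraries. The 10 genes together summed to between 1270 and 52725 normalized counts, with Opn1sw the most abundant, and Cnga3 (in libraries 3, 17 and 26) and Cngb3 (in library 25) were the 2 genes listed at 0 anywhere. Ceacam1-/- laser libraries 14, 15 and 18, Ceacam1-/- library 23 and WT library 21 were the 5 highest for 8 of the genes and among the 6 highest for Opn1mw. Gngt2 ran differently and is described separately.

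Opn1sw encodes the short-wave opsin, which many mouse cones express together with the medium-wave pigment. It stood at 13810, 2663, 168 and 4708 normalized counts in WT libraries 21, 22, 26 and 27, and at 9135, 394, 26.6 and 355 in Ceacam1-/- libraries 23, 24, 25 and 28. With laser, it ran from 57.7 to 3346 (median 756) in WT and from 65.1 to 16536 (median 3317) in Ceacam1-/- libraries. All 4 groups overlapped, and a single group without laser spanned 82.0-fold (WT) or 343-fold (Ceacam1-/-) between its lowest and highest library.

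Opn1mw, the medium-wave opsin, followed the same libraries at a lower level. It stood at 617, 165, 47.7 and 453 normalized counts in WT libraries 21, 22, 26 and 27, and at 1233, 84.1, 15.1 and 41.7 in Ceacam1-/- libraries 23, 24, 25 and 28. In the laser libraries it ran from 17.4 to 855 (median 66.3) in WT and from 6.43 to 3508 (median 394) in Ceacam1-/- libraries. The highest value in all 24 libraries was in library 18 and the lowest in library 4, both Ceacam1-/- with laser.

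Gnat2, the α subunit of cone transducin, had a smaller spread. It stood at 2084, 628, 386 and 1212 normalized counts in WT libraries 21, 22, 26 and 27, and at 2592, 242, 396 and 163 in Ceacam1-/- libraries 23, 24, 25 and 28. After laser, its range was 106 to 1076 (median 343) in WT and 130 to 4690 (median 687) in Ceacam1-/- libraries. Library 25, the lowest of all for Opn1sw, was higher than libraries 24 and 28 of its group for Gnat2. Gnb3, the β subunit, which ON bipolar cells use as well, stood at 3718, 844, 154 and 1956 in these WT libraries and at 4100, 282, 353 and 520 in these Ceacam1-/- libraries. With laser, Gnb3 ran from 273 to 2796 (median 725) in WT and from 261 to 13948 (median 2021) in Ceacam1-/- libraries, again with overlapping groups.

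Pde6c is the catalytic subunit of the cone phosphodiesterase and Pde6h its inhibitory subunit. Pde6c stood at 823, 160, 208 and 419 normalized counts in WT libraries 21, 22, 26 and 27 and at 812, 138, 102 and 67.4 in Ceacam1-/- libraries 23, 24, 25 and 28, and with laser from 19.6 to 546 (median 70.6) in WT and from 14.7 to 1804 (median 266) in Ceacam1-/-. Pde6h stood at 1226, 221, 44.9 and 500 in the same WT and at 1513, 40.6, 0.508 and 94.3 in the same Ceacam1-/- libraries. With laser, Pde6h ran from 34.1 to 843 (median 127) in WT and from 65.2 to 5706 (median 620) in Ceacam1-/- libraries. The value of 0.508 in library 25 stood far under every other value of Pde6h and enters each contrast that uses the Ceacam1-/- libraries without laser.

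Cnga3 and Cngb3 are the subunits of the cone channel, and both were scarce. Cnga3 stood at 151, 10.1, 0 and 41.3 normalized counts in WT libraries 21, 22, 26 and 27 and at 94.0, 19.2, 5.21 and 1.08 in Ceacam1-/- libraries 23, 24, 25 and 28, and with laser from 0 to 51.5 (median 18.1) in WT and from 1.80 to 148 (median 30.8) in Ceacam1-/-. Cngb3 stood at 332, 36.9, 1.83 and 144 in the same WT and at 418, 20.9, 0 and 25.6 in the same Ceacam1-/- libraries, and with laser from 3.44 to 94.9 (median 20.6) in WT and from 10.1 to 559 (median 75.2) in Ceacam1-/-. At such levels small differences between libraries were not detectable.

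Arr3, cone arrestin, stood at 1755, 439, 71.8 and 950 normalized counts in WT libraries 21, 22, 26 and 27, and at 2301, 158, 56.9 and 165 in Ceacam1-/- libraries 23, 24, 25 and 28. Among laser libraries, it ran from 42.1 to 767 (median 112) in WT and from 36.5 to 5276 (median 675) in Ceacam1-/- libraries. The highest Arr3 values were those of Ceacam1-/- laser libraries 14, 15 and 18, while library 4 of the same group was the lowest of all 24.

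**Figure D1:**
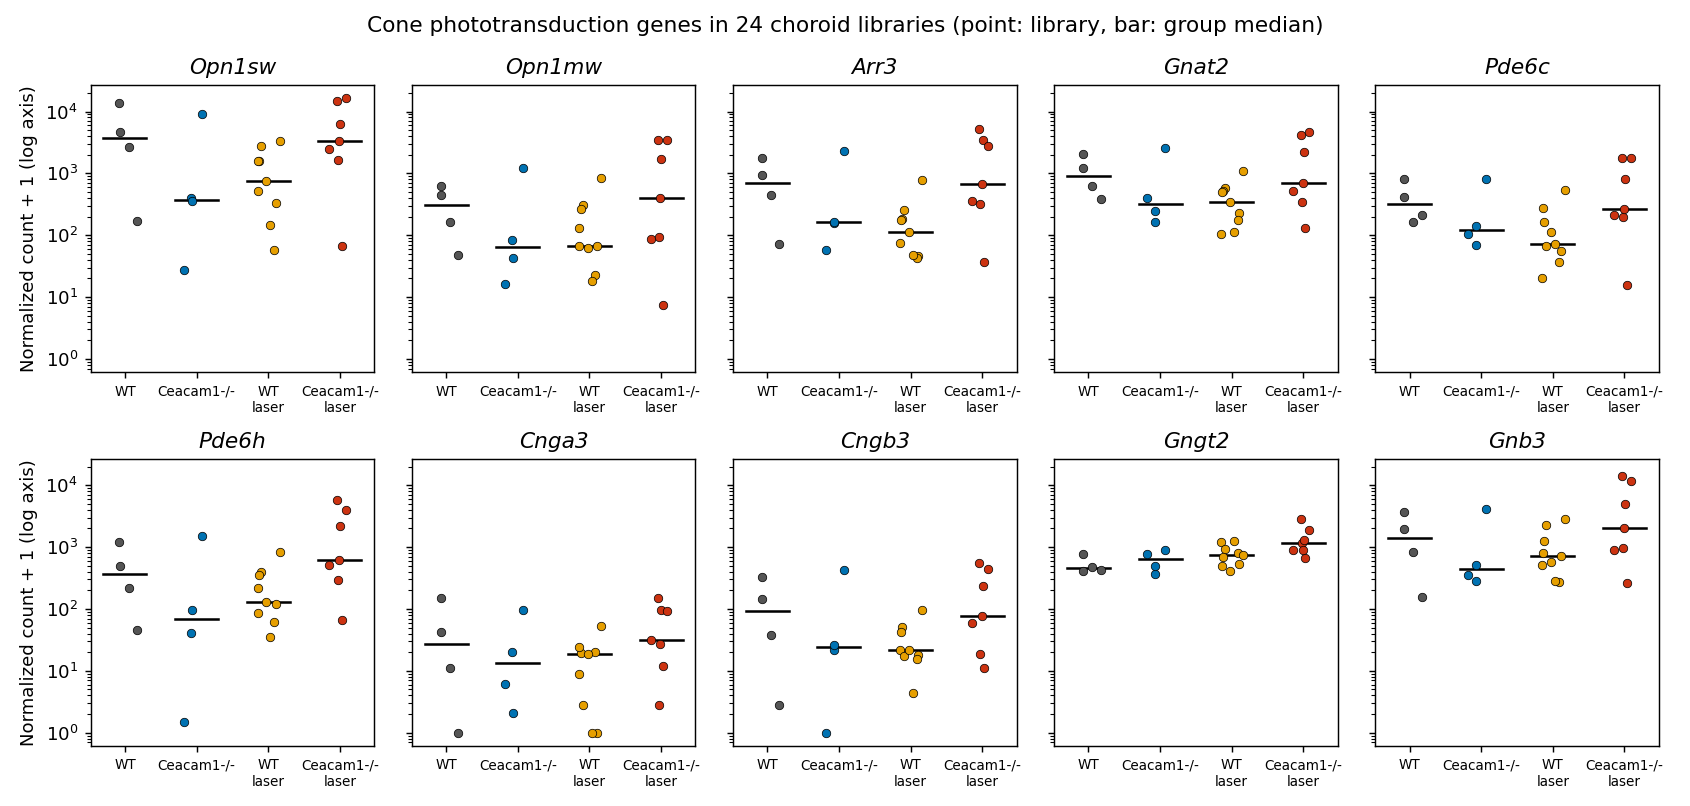
Normalized count plus 1 (log axis) of each of the 10 cone genes in each library (points), by genotype and laser, with bars at the group medians. The groups overlap for all 10 genes, and Gngt2 has the narrowest range, from 370 to 2838.

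Divided by the length of the canonical transcript, the median level over all 24 libraries was highest for Opn1sw (670 normalized counts per kb), then Gnb3 (468), Gngt2 (387), Gnat2 (245), Arr3 (160), Opn1mw (91.5), Pde6c (70.0), Pde6h (43.5), Cngb3 (6.63) and Cnga3 (3.52). Neighbours in this order were not always apart. Opn1sw exceeded Gnb3 per kb in 11 of 24 libraries and Gnat2 exceeded Arr3 in 12 of 24, so that neither pair had a stable order. Pde6h exceeded Cngb3 in 24 of 24 libraries and Cngb3 exceeded Cnga3 in 22 of 24.

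The comparison of genotypes without laser asks whether loss of CEACAM1 alone goes with a change in these genes. None of the 10 genes passed an adjusted p of 0.05 (limma with Benjamini-Hochberg adjustment), where 0% of 20057 genes tested did, and none passed an unadjusted p of 0.05, where 307 genes (1.53%) did. In its own comparison of choroid between the genotypes, the study did call genes, by DESeq2 with sex as a covariate. The absence of calls here therefore does not show that no gene differs. No cone gene had groups without overlap, which 1.36% of all genes had. Of the 10 estimates, 9 were below 0 in Ceacam1-/- against WT and Gngt2 was above, with a median of -0.98 on the log2 scale, beside -0.02 over all genes. Opn1sw had a log2 difference of -2.42 with a standard error (SE) of 1.80 and a 95% interval of -6.50 to 1.65, so that with 4 libraries a group neither a large fall nor a rise could be told from the spread. The 10 rod genes had a median of -1.48 in the same comparison, with 0 called. For Opn1sw, libraries 21 and 23 were the highest and 26 and 25 the lowest of their groups.

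With laser, the same comparison had 9 WT against 7 Ceacam1-/- libraries. All 10 estimates were above 0 in Ceacam1-/- against WT with a median of 1.89 on the log2 scale, beside 0.01 over all genes, but none was called, where 4 of 19757 genes (0.0202%) were. At an unadjusted p of 0.05, 5 of the 10 passed, beside 22.7% of all genes. Arr3 had the lowest p, with a log2 difference of 2.67 (SE 0.89) and an adjusted p of 0.140 by limma. Pde6h had a difference of 2.38 (SE 0.84, adjusted p 0.153 by limma), and Gngt2, with the smallest difference of the 10, 0.75 (SE 0.29, adjusted p 0.170). Cngb3 (1.98) and Gnat2 (1.61) were the other genes past an unadjusted p of 0.05, and the opsins were not (Opn1sw 2.08, SE 1.05; Opn1mw 1.75, SE 1.16). The rod genes had a median of 1.90 with 0 called. No cone gene had groups without overlap, against 0.147% of all genes. Library 4 of the Ceacam1-/- group lay within or under the range of the WT libraries for every cone gene.

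The laser comparisons ask how the RNA of these genes stood after lesions aimed at the choroid. In WT, 0 of the 10 genes passed adjusted p 0.05, where 1053 of 19950 genes (5.28%) did by limma, 844 higher and 209 lower with laser. None passed an unadjusted p of 0.05, where 20% of all genes did. The estimates of 9 genes were below 0 with laser and that of Gngt2 was above, with a median of -1.07 on the log2 scale beside -0.10 over all genes. Arr3 had -2.003 (SE 1.12), Pde6c -1.81 (SE 0.99) and Gnat2 -1.52 (SE 0.85), each with a 95% interval that included 0. With array weights these 3 genes passed the adjusted threshold, where 32.6% of all genes did. With log2 Aif1, a myeloid gene that itself rose with laser, as a covariate chosen after seeing the data, 9 of the 10 estimates turned from below to above 0 (median 2.78) with 0 of the 10 called. Aif1 ran from 160 to 368 normalized counts in the libraries without laser and from 414 to 1586 in those with laser. No Aif1 level was shared by both, so this fit reaches beyond the measured values and cannot separate laser from Aif1. No cone gene had groups without overlap, which 6.25% of all genes had.

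In Ceacam1-/- mice, 0 of the 10 genes passed, where 742 of 19950 (3.72%) did by limma, while all 10 estimates were above 0 with laser and their median was 1.71 on the log2 scale beside 0.02 over all genes. Pde6h, at 3.94 (SE 1.37, adjusted p 0.102 by limma), and Gngt2, at 1.04 (SE 0.36, adjusted p 0.0959 by limma), passed an unadjusted p of 0.05, as 20% of all genes did. Without Ceacam1-/- library 23, the one high in cone and rod genes, both passed the adjusted threshold: Pde6h at 5.54 (adjusted p 0.00828 by limma) and Gngt2 at 1.24 (adjusted p 0.0394 by limma), where 12.5% of all genes passed. These were the highest estimates of 11 fits that each dropped 1 library. The lowest were 2.22 for Pde6h and 0.81 for Gngt2. No cone gene had groups without overlap, which 2.13% of all genes had. Of 11 myeloid genes, 10 were called higher with laser in WT, where 844 of 19950 genes were. In Ceacam1-/- libraries 6 of the 11 were called higher, where 413 of 19950 genes were. Estimates were above 0 for 11 of 11 in WT and 10 of 11 in Ceacam1-/- libraries. Lyz2, the most abundant of them, rose by 2.74 in WT and 2.44 in Ceacam1-/- on the log2 scale. Pigment epithelium genes had a median of -1.69 with laser in Ceacam1-/- libraries with 0 of 6 called and 5 past an unadjusted p of 0.05. With the Aif1 covariate, 9 of the 10 cone genes passed for laser in Ceacam1-/- libraries (median 4.23), where 29.3% of all genes passed. As in WT, the Aif1 values with and without laser did not overlap, so this fit cannot separate laser from Aif1. Skeletal muscle genes had a median of -1.98 with 0 of 7 called and 6 past an unadjusted p of 0.05. The part of pigment epithelium and muscle RNA in the values of the cone genes was not tested.

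The difference between the laser contrasts of the 2 genotypes, the interaction term, was above 0 for all 10 genes with a median of 2.90 on the log2 scale, beside 0.01 over all genes and 3.41 for the rod genes. None passed adjusted p 0.05 by limma, nor did any of the 19950 genes tested (0%). At an unadjusted p of 0.05, 4 of the 10 passed, beside 6.22% of all genes: Pde6h at 4.74 (SE 1.90), Opn1sw at 4.50 (SE 2.07), Arr3 at 3.65 (SE 1.62) and Gnat2 at 2.59 (SE 1.22), each with an adjusted p of 0.640 by limma. Each library enters 1 genotype contrast, 1 laser contrast and the interaction, so that one high or low library moves several of these estimates.

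**Figure D2:**
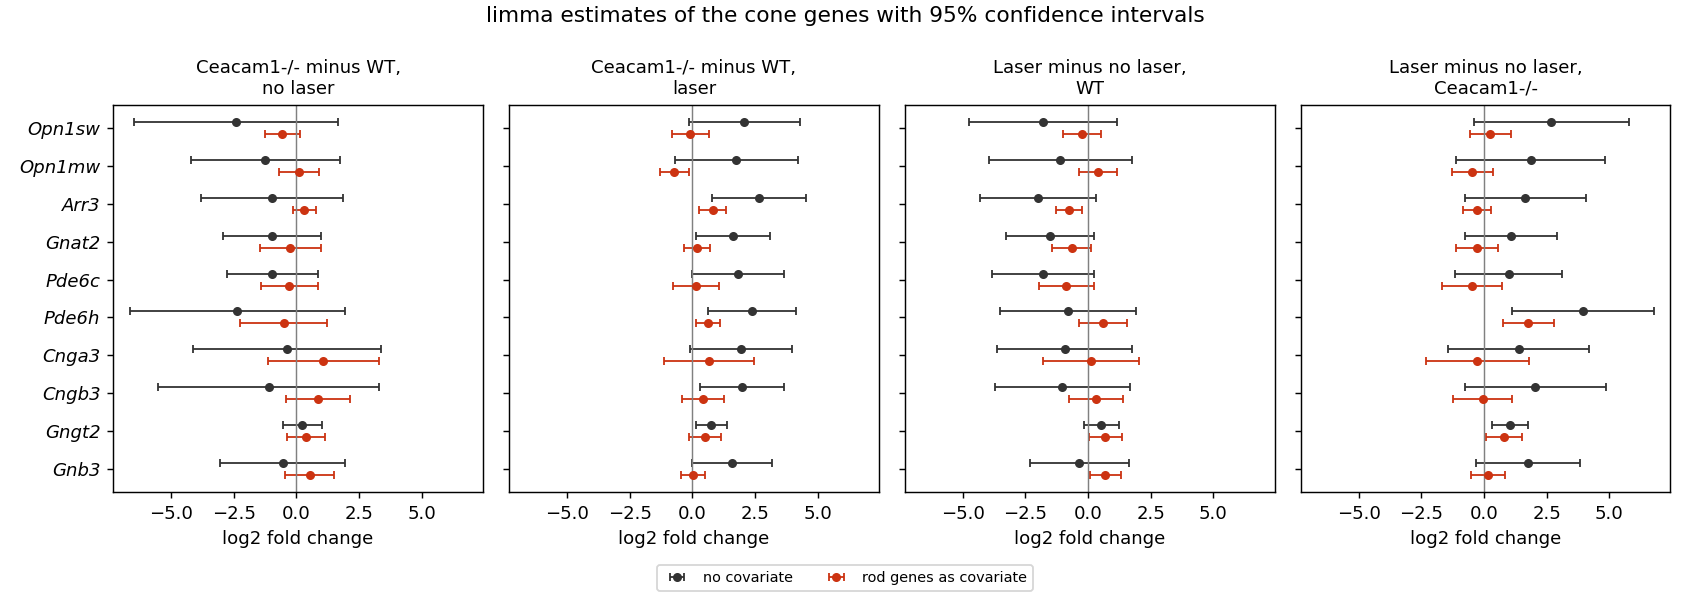
Log2 fold change of each cone gene (points) with its 95% confidence interval (bars) in 4 comparisons, from limma without a covariate (dark) and with the mean log2 value of 9 rod genes as a covariate (red). The interval of Opn1sw between genotypes without laser runs from -6.50 to 1.65 without and from -1.27 to 0.14 with the covariate.

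The cone genes moved with the rod genes from library to library. Pearson's r with Sag, rod arrestin, over the 24 libraries after removing the group means was 0.979 for Opn1sw (Spearman's ρ 0.972), 0.967 for Arr3 (ρ 0.981), 0.957 for Opn1mw (ρ 0.968), 0.948 for Gnb3 (ρ 0.952) and 0.947 for Pde6h (ρ 0.954). It was 0.923 for Cngb3 (ρ 0.914) and 0.880 for Gnat2 (ρ 0.863), and each of these 7 had a permutation p of 1e-05, the smallest that 100000 permutations can give, and an adjusted p of 4.29e-05 over the 30 relations computed, for r and for ρ. Pde6c (r 0.818, ρ 0.810, permutation p 3e-05 for each) and Cnga3 (r 0.696, ρ 0.778, permutation p 0.00058 and 0.00012) were less close. Without libraries 4 and 23, whose Sag lay farthest from the median once group means were removed, r stayed between 0.677 (Cnga3) and 0.970 (Opn1sw) for these 9 genes. Within the WT laser libraries alone, r ran from 0.398 for Cnga3 to 0.993 for Opn1sw, and within the Ceacam1-/- laser libraries from 0.761 for Cnga3 to 0.995 for Opn1mw. Gngt2 stood apart at r 0.410 and ρ 0.379 (permutation p 0.0703 and 0.0891, adjusted 0.0811 and 0.103).

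**Figure D3:**
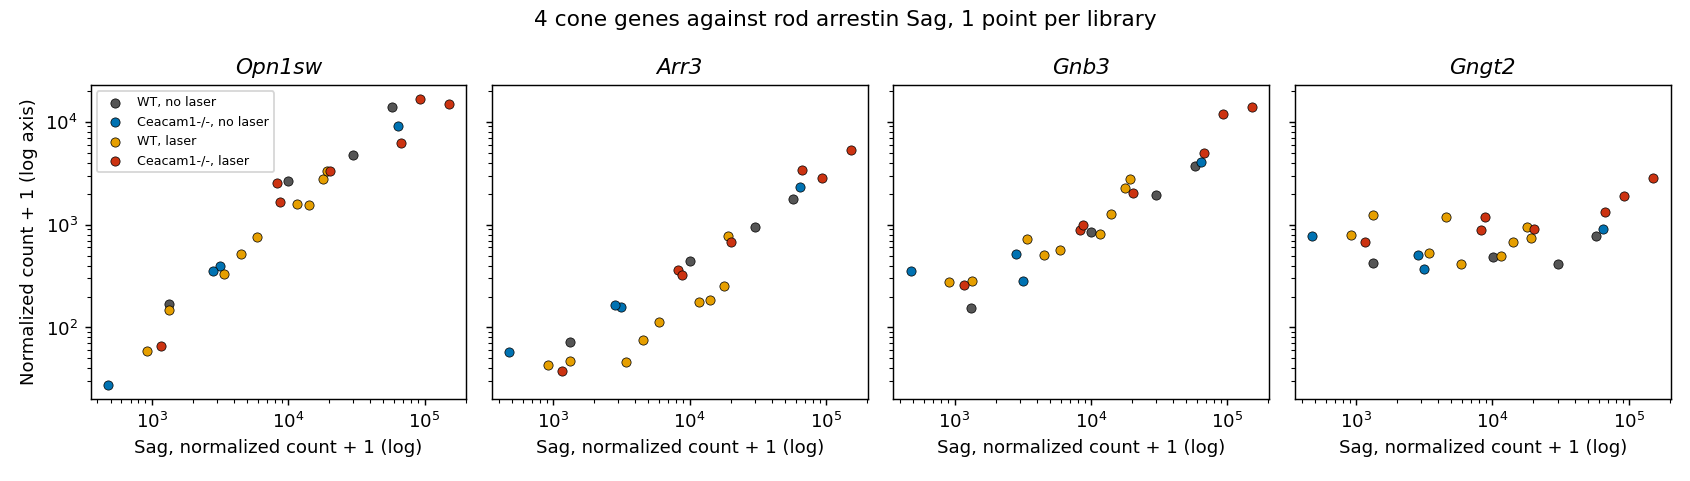
Normalized count plus 1 of Opn1sw, Arr3, Gnb3 and Gngt2 against Sag (both axes log), 1 point per library coloured by group. The first 3 genes lie along a line, with r of 0.979, 0.967 and 0.948 after removing group means, and Gngt2 does not, with r of 0.410.

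The genes were not equally steep against Sag. Over the 24 libraries, a change of 1 in log2 Sag went with a change of 1.13 in log2 Opn1sw, 1.07 in Pde6h, 1.02 in Opn1mw, 0.95 in Cngb3 and 0.90 in Arr3, which is close to proportion. Gnb3 and Cnga3 (0.73 each), Pde6c (0.66) and Gnat2 (0.61) changed less than in proportion, and Gngt2 hardly at all (0.15). Expressed as a ratio to Sag, the SD over libraries fell from 2.65 to 0.62 on the log2 scale for Opn1sw and from 1.59 to 1.17 for Gnat2, whereas it rose from 0.73 to 2.05 for Gngt2.

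For 7 cone genes the ratio to a rod paralog was also computed within each library. The median log2 ratio over 24 libraries was -4.83 for Arr3 over Sag, -5.44 for Gnat2 over Gnat1, -2.88 for Pde6c over Pde6a, -4.18 for Pde6h over Pde6g, -6.23 for Cnga3 over Cnga1, -5.03 for Cngb3 over Cngb1 and -3.07 for Gngt2 over Gngt1. These are ratios of values that are not divided by length, so they compare libraries and not genes. Ceacam1-/- library 25, the poorest in rod RNA, had the highest ratio of all for Gnat2 (-1.41), Pde6c (1.30) and Arr3 (-3.04) and the lowest for Pde6h (-8.60) and Cngb3 (-8.11). Arr3 over Sag had a lower median in WT laser libraries (-5.92) than in WT libraries without laser (-4.75). The other 6 pairs had a higher one with laser in WT, by the most for Gngt2 over Gngt1 (-3.05 beside -4.60). In Ceacam1-/- libraries, every pair but Pde6h over Pde6g had a lower median with laser. Gngt2 over Gngt1 was at -3.75 with laser beside -2.66 without, and Gnat2 over Gnat1 at -5.67 beside -4.84. Pde6h over Pde6g was at -3.90 beside -4.88. These differences were not tested.

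With the mean log2 value of 9 rod genes as a covariate, 46 of the 50 estimates (10 genes in 5 comparisons) came closer to 0 and 49 of the 50 had a smaller SE. For Opn1sw, the difference between genotypes without laser changed from -2.42 (SE 1.80) to -0.57 (SE 0.31), and that with laser from 2.08 (SE 1.05) to -0.084 (SE 0.35). Of the 10 genes, 1 passed adjusted p 0.05 by limma in any comparison with this covariate: Pde6h with laser in Ceacam1-/- libraries, at 1.77 (SE 0.49, adjusted p 0.0376 by limma), where 4.8% of all genes passed. In the other comparisons with this covariate, 0% of all genes passed between genotypes without laser, 0.0152% with laser, 6.63% for laser in WT and 0% in the interaction. Without library 25, where Pde6h stood at 0.508, the estimate was 1.102 and the adjusted p 0.0531 by limma, so this call rests on that library. Arr3 had an estimate of -0.77 with laser in WT (SE 0.25, adjusted p 0.0705 by limma) and of 0.82 between genotypes with laser (SE 0.26, adjusted p 0.526 by limma), and Opn1mw one of -0.71 (SE 0.27, adjusted p 0.576 by limma) in the latter comparison. The interaction had a median of 0.25 over the 10 genes with this covariate, against 2.90 without it.

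Gngt2, the γ subunit of cone transducin, was the exception among the 10. It stood at 781, 485, 421 and 415 normalized counts in WT libraries 21, 22, 26 and 27, and at 896, 370, 774 and 503 in Ceacam1-/- libraries 23, 24, 25 and 28. After laser, Gngt2 ran from 415 to 1232 (median 746) in WT and from 670 to 2838 (median 1174) in Ceacam1-/- libraries. Libraries nearly without rod RNA still held it: library 25, with 475 normalized counts of Sag, had 774 of Gngt2, and WT laser library 17, with 1332 of Sag, had the highest Gngt2 of its group. Within the 9 WT laser libraries its r was 0.820 with Aif1, the gene of the myeloid protein IBA1, -0.270 with Sag and -0.720 with Rpe65. Within the 7 Ceacam1-/- laser libraries these values were -0.745 with Aif1, 0.887 with Sag and -0.722 with Rpe65, so the first 2 had opposite signs in the 2 groups. These 7 libraries fell into separate blocks. Libraries 14, 15 and 18 had 2838, 1313 and 1905 of Gngt2 beside 504, 620 and 414 of Aif1. Libraries 4, 5, 6 and 7 had 670, 882, 1174 and 899 of Gngt2 beside 851, 1145, 1235 and 995 of Aif1. The difference in sign between the groups was not tested. Over all 24 libraries, again after removing the group means, r with Aif1 was -0.08 and ρ -0.04 (permutation p 0.744 and 0.872), whereas the other 9 genes had r between -0.487 (Opn1sw) and -0.634 (Gnat2) with Aif1. For these 9, ρ ran from -0.536 to -0.653, the adjusted permutation p of r from 0.00588 to 0.0276, and r without libraries 1 and 18 from -0.471 to -0.560. Abi3, whose exons overlap those of Gngt2, had medians of 282, 433, 612 and 441 in the WT, Ceacam1-/-, WT laser and Ceacam1-/- laser libraries, and in library 14, the highest for Gngt2 at 2838, Abi3 stood at 291. In the WT laser group the libraries highest in Gngt2 were also the highest in Abi3: libraries 1, 2 and 17 had 1195, 940 and 1232 of Gngt2 beside 1010, 833 and 799 of Abi3. Reads of these overlapping genes, on opposite strands, cannot be told apart where their exons coincide.

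**Figure D4:**
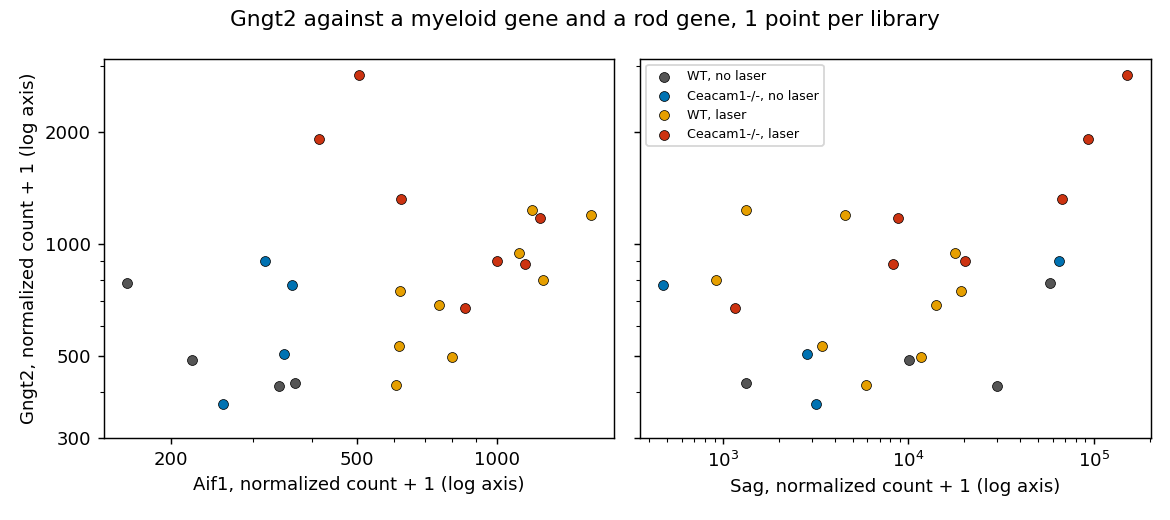
Gngt2 against the myeloid gene Aif1 (left) and the rod gene Sag (right), as normalized count plus 1 on log axes, 1 point per library coloured by group. The WT laser libraries line up in the left panel (r 0.820 with Aif1) and the Ceacam1-/- laser libraries in the right (r 0.887 with Sag). Ceacam1-/- laser libraries 14, 15 and 18 had the highest Gngt2 and the lowest Aif1 of their group.

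With Rpe65, r over all 24 libraries after removing the group means ran from -0.224 (Cnga3) to -0.550 (Gnb3), and 6 of the 10 relations passed an adjusted permutation p of 0.05: Gnb3 (0.0296), Gngt2 (0.0276), Pde6h (0.0296), Cngb3 (0.0458), Opn1mw and Arr3 (0.0465 each). With upper-quartile scaling the relations of Opn1mw, Arr3 and Cngb3 no longer passed (adjusted p 0.0566 each), nor did that of Cngb3 at a pseudocount of 10 (0.0506). Spearman's ρ ran from -0.182 (Pde6c) to -0.595 (Pde6h), and r without libraries 18 and 28, whose Rpe65 lay farthest from the median once group means were removed, from -0.226 to -0.577. Within the WT laser libraries these relations were weak and of mixed sign for all but Gngt2 (from -0.312 to 0.356), and within the Ceacam1-/- laser libraries they ran from -0.556 to -0.810. In that group, libraries 14, 15 and 18, the highest in cone RNA, had Rpe65 at 4286, 3644 and 2045 normalized counts, beside 12802 in library 4.

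The ratio of the opsins compares members within a library. Opn1sw over Opn1mw, each plus 1, was 22.3, 16.1, 3.48 and 10.4 in WT libraries 21, 22, 26 and 27, and 7.41, 4.64, 1.72 and 8.33 in Ceacam1-/- libraries 23, 24, 25 and 28. With laser it ran from 2.54 to 12.2 (median 7.74) in WT and from 3.65 to 28.6 (median 8.41) in Ceacam1-/- libraries. Among the latter, libraries 14, 15 and 18, the highest in cone RNA, had the 3 lowest ratios, at 4.30, 3.65 and 4.71. Opn1sw exceeded Opn1mw in all 24 libraries before division by length. Mean log2 ratios were 3.41 ± 1.17 (SD, n = 4) in WT and 2.24 ± 1.03 (SD, n = 4) in Ceacam1-/- libraries, a difference of -1.18 (two-sided exact permutation p 0.2, where 0.0286 is the smallest possible). With laser they were 2.72 ± 0.75 (SD, n = 9) and 3.06 ± 1.103 (SD, n = 7), a difference of 0.33 (exact permutation p 0.485). The laser differences were -0.69 in WT (exact permutation p 0.213) and 0.82 in Ceacam1-/- libraries (exact permutation p 0.242). Adjusted over these 4 tests, the exact p-values were 0.323, 0.485, 0.323 and 0.323, so no difference exceeded the spread between libraries.

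**Figure D5:**
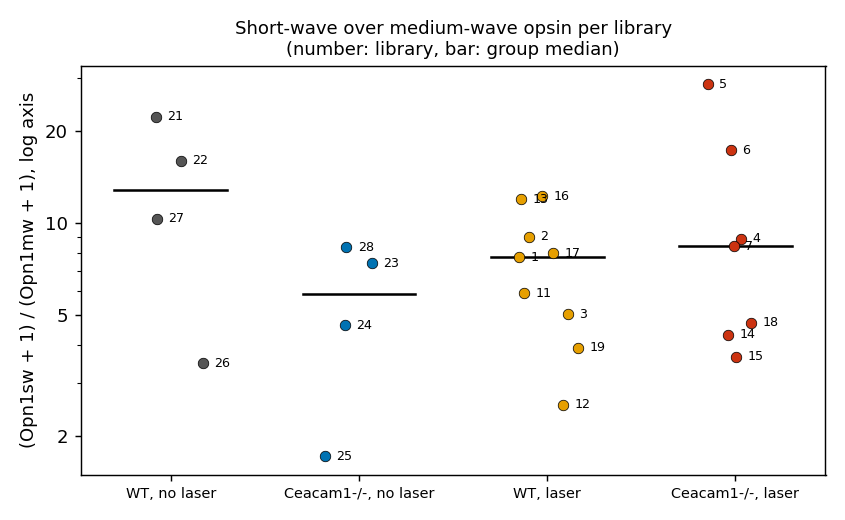
Ratio of Opn1sw to Opn1mw, each plus 1 (log axis), in each library (points, labelled by library number), with bars at the median of each group. Values run from 1.72 in library 25 to 28.6 in library 5, and the 4 groups overlap.

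Other photoreceptor genes mostly had estimates of the same sign as the cone genes. Of 14 genes that shut off or reset phototransduction, among them Pdc (phosducin), Rcvrn (recoverin) and Grk1 (an opsin kinase), 0 passed adjusted p 0.05 in any comparison, and all 14 estimates were below 0 between genotypes without laser (median -1.28) and above 0 with laser (median 1.90). Of 9 genes of the outer segment, with Prph2 (peripherin) the most abundant, 0 passed, and the medians were -1.54 and 1.75. Of 7 photoreceptor transcription factors, with Neurod1 the most abundant, 1 passed in 1 comparison, where 3.72% of all genes passed. This was Rxrg, a retinoid X receptor expressed in cones and also in skeletal muscle, which fell with laser in Ceacam1-/- libraries by 1.16 on the log2 scale (SE 0.28, adjusted p 0.0219 by limma). Rxrg ran from 213 to 638 normalized counts in Ceacam1-/- libraries without and from 105 to 232 with laser, and in WT from 357 to 489 without and from 143 to 311 with laser (log2 difference -0.89, SE 0.27, adjusted p 0.05001 by limma, just over the threshold). The highest Rxrg value was in library 25, which also had the highest sum of skeletal muscle markers (863935 normalized counts). These markers had a median of -1.98 with laser in Ceacam1-/- libraries, with 0 of 7 called. Of the 7, 6 were past an unadjusted p of 0.05, where 20% of all genes were. The part of muscle RNA in the value of Rxrg was not tested.

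By Pearson's r over the 24 libraries after removing group means, the genes whose pattern was most like the mean of the 10 were Rdh12 (0.992), which reduces retinal in photoreceptors, Pde6g (0.990), Gngt1 (0.990), Gnat1 (0.988), Reep6 (0.987), Nrl (0.987), the factor that specifies rods, Mpp4 (0.987) and Cngb1 (0.986). The first 8 thus included 4 genes of rod phototransduction. The median r over 19950 genes was -0.03, and 518 genes had an r over 0.9, so these 8 head a long list. Single members differed in their closest genes: A930036K24Rik (0.982) and Pdc (0.982) for Opn1sw, Pde6g (0.975) and Rcvrn (0.974) for Opn1mw, Gngt1 (0.984) and Cngb1 (0.983) for Arr3, and Rom1 (0.982) and Lrit2 (0.976) for Gnat2. They were Kcne2 (0.961) and Plekhd1 (0.950) for Pde6c, Crx (0.977) and Gpr152 (0.976) for Pde6h, Crx (0.963) and Sh2d1a (0.963) for Cngb3, and Pclo (0.985) and Smim40 (0.984) for Gnb3. Cnga3, at low values, was closest to 2410018L13Rik (0.882) and Ipo7 (0.851), and Gngt2 to Dnal4 (0.926) and Pcbp2 (0.925). Among the members themselves, r with their mean was highest for Arr3 (0.986) and lowest for Gngt2 (0.455).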

How the data were processed

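Total RNA of choroid was made into SMART-Seq mRNA LP libraries and sequenced on an Illumina NextSeq. The authors checked reads with FastQC 0.11.5, estimated transcript reads with Salmon 1.10.3 against GRCm39, and normalized gene counts with DESeq2 1.44.0. The study states that 1 outlier library was removed, which it does not name. The deposited signal values are normalized counts of 56065 genes in 24 libraries, and 0 columns were set aside. Reads were not recovered, since 49.4% to 87.8% of low values per library (under 5.5 steps) came within 5% of whole multiples of the smallest step, so no count model was fitted.

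Groups came from the genotype and treatment labels. Genes with a mean of at least 10 were tested as log2(value + 1) by limma 3.58.1 (R 4.3.3) with a variance trend and Benjamini-Hochberg adjustment over all genes tested at a threshold of 0.05. Fold changes are on that scale, which understates changes of low genes. Genotype was compared within the 8 libraries without and the 16 with laser, and laser and the interaction in a model of all 24. The code was tested on simulated data. Sex, a covariate in the study, is not given by the labels. Correlations used 100000 permutations within groups, and opsin ratios exact permutation. Other tools were Python 3.11.15, scipy 1.17.1, numpy 2.4.6, pandas 2.3.3 and matplotlib 3.10.9. Positions came from a GRCm39 annotation that matched 99.1% of identifiers.

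The named genes are the 10 members, their rod counterparts, the most abundant gene of each list and up to 3 past the threshold, and the closest genes by r (8 for the mean, 2 per member). Ceacam1, Calu, Arhgdib, Gm69908, Abi3, Grk1 and Pecam1 are named besides, for the design, exon overlap or role. The values of 1 rod gene are not reported here. Members, lists and tests were chosen with earlier results of these data known. Alternatives were pseudocounts of 0.5 and 10, no filter, quantile and upper-quartile scaling, array weights, covariates for Y-linked or rod genes, fewer libraries in the fit and each library left out. A covariate of log2 Aif1, and the rod covariate without library 25, were chosen after seeing the data.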

Additional observations from a re-analysis of the deposited data

Results flagged for a closer look

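Of 48 groups of values looked at for a library far from the others of its group, 2 held one, where chance alone gives about 1 in 20. Opn1sw in Ceacam1-/- laser library 4 stood at 6.05 on the log2 scale, and the gap to the next library took up 0.583 of the range of the 7 libraries. The sum of the 10 cone genes in Ceacam1-/- library 23, without laser, stood at 14.5 on the log2 scale, and the gap to the next library took up 0.957 of the range of the 4 libraries. Library 23 was also the highest of its group in the rod gene Sag, with 64458 normalized counts, and library 4 the lowest of its group, with 1163.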

How the results depend on the processing

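Retinal RNA differed widely between libraries of a group. With the rod covariate, genes called numbered 3 between genotypes with laser, 1322 for laser in WT and 958 in Ceacam1-/-. Without it they numbered 4, 1053 and 742. The part of retinal RNA in these numbers was not tested otherwise. No paired analysis was possible because each library number occurs once. With array weights, the genes called numbered 1 between genotypes without laser, 297 with laser, 6505 for laser in WT (32.6%) and 3551 for laser in Ceacam1-/- (17.8%). Cone genes called then numbered 3 for laser in WT (Arr3 -2.65, Gnat2 -1.65, Pde6c -1.86, limma adjusted p 0.0105, 0.0196 and 0.0416) and 2 in Ceacam1-/- (Pde6h and Gngt2). Upper-quartile scaling gave 1 gene between genotypes without laser. No filter gave 437 genes for laser in Ceacam1-/-. Only the 2 groups in the fit gave 2274 genes for laser in WT and 38 in Ceacam1-/-. With each library left out, genes called ran from 0 to 1 between genotypes without laser, from 4 to 61 with laser (61 without library 19, 25 without 17, 7 without 4), from 479 to 1162 for laser in WT (479 without library 21, 554 without 27) and from 148 to 2488 in Ceacam1-/- (148 without library 25, 255 without 24, 466 without 5, 2488 without 23). Cone genes called for laser in Ceacam1-/- then ran from 0 to 2. The sign changed for Cnga3 (-1.73 to 0.69), Cngb3 (-2.51 to 0.39) and Gnb3 (-1.43 to 0.10) between genotypes without laser, and for Cnga3 (-2.28 to 0.14) and Gnb3 (-1.23 to 0.29) for laser in WT.

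With the rod covariate, 1 cone gene was called for laser in Ceacam1-/- (Pde6h), and signs changed as follows. Between genotypes without laser, Opn1mw was 0.086, Arr3 0.31, Cnga3 1.08, Cngb3 0.86 and Gnb3 0.54, and with laser Opn1sw was -0.084 and Opn1mw -0.71. For laser in WT, Opn1mw was 0.39, Pde6h 0.60, Cnga3 0.12, Cngb3 0.32 and Gnb3 0.69. For laser in Ceacam1-/-, Opn1mw was -0.46, Arr3 -0.28, Gnat2 -0.27, Pde6c -0.48, Cnga3 -0.26 and Cngb3 -0.051, and without library 25 Opn1mw was -0.32, Arr3 -0.16, Pde6c -0.15 and Cngb3 -0.55. In the interaction, Opn1mw was -0.85, Cnga3 -0.38, Cngb3 -0.37 and Gnb3 -0.53. The rod genes are themselves measured in these libraries, so this covariate compares cone with rod genes.

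With Aif1 as a covariate, genes called numbered 9 between genotypes with laser, 2 for laser in WT and 5850 (29.3%) in Ceacam1-/-, with 9 cone genes among the latter, all higher. For laser in WT the sign then changed for Opn1sw (2.47), Opn1mw (3.61), Arr3 (1.64), Gnat2 (1.76), Pde6c (1.82), Pde6h (3.29), Cnga3 (3.09), Cngb3 (3.35) and Gnb3 (3.09), with 0 of them called. Aif1 itself rose with laser, by 1.79 in WT and 1.27 in Ceacam1-/-. Its values with and without laser did not overlap, so the laser estimates with this covariate reach beyond the measured values. Relations with Rpe65 lost the threshold at a pseudocount of 10 for Cngb3 (r -0.495) and with upper-quartile scaling for Opn1mw (-0.505), Arr3 (-0.489) and Cngb3 (-0.459). The cause of these changes was not tested. The median of the cone genes ran from -1.94 to -0.35 between genotypes without laser with each library left out, from 1.49 to 2.53 with laser, from -1.97 to -0.36 for laser in WT, from 1.04 to 2.68 in Ceacam1-/- and from 2.27 to 3.90 in the interaction. With the rod covariate it changed sign to 0.20 between genotypes without laser, 0.22 for laser in WT and -0.15 in Ceacam1-/-, and with Aif1 to 2.78 for laser in WT. No alternative called a cone gene between genotypes.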

Other observations

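The marker lists of other cells gave these values beside the cone genes, and their part in them was not tested. Bipolar cell markers, of which Trpm1 is the most abundant and is also known from melanocytes, summed to between 1580 and 19513 normalized counts, with a median log2 difference of 2.08 between genotypes with laser and 0 of 7 called. Amacrine and ganglion cell markers, led by Nefl, summed to between 4380 and 26606, with a median of 1.46 in that comparison and 0 of 9 called. Müller cell markers, led by Apoe, which macrophages express as well, summed to between 39486 and 152295, with a median of 0.12 over 3 estimates above and 2 below 0, and with 0 of 5 called. The 2 below 0 passed an unadjusted p of 0.05, as 22.7% of all genes did. They were Rlbp1, which pigment epithelium expresses as well, at -0.86, and Apoe at -1.32 (adjusted p 0.0822 by limma). Apoe ran from 63957 to 118802 in WT and from 17781 to 58194 in Ceacam1-/- laser libraries, so its groups did not overlap, as for 0.147% of all genes.

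Pigment epithelium markers, led by Ttr, summed to between 29962 and 887771, with a median of -1.58 between genotypes with laser and 0 of 6 called, 5 of them past an unadjusted p of 0.05, beside 22.7% of all genes. Skeletal muscle markers, led by Acta1, summed to between 12029 and 863935, with a median of -1.50 and 0 of 7 called. All 7 were past an unadjusted p of 0.05, beside the same 22.7% of all genes. Melanocyte markers, led by Dct, had a median of -0.96 with 0 of 4 called, endothelial markers, led by Plvap, -0.54 with 0 of 6 called, myeloid markers -0.50 with 0 of 11 called, and lens markers, led by Cryaa, -0.08 with 0 of 4 tested called. No list had a gene at 0 throughout.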
